A study of Gallus gallus and Dromaius novaehollandiae with 14 samples.

Results

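In embryonic skin epidermis of chicken and emu, 100 of 8751 measured genes were taken as the genes whose RNA was lowest in the claw in both birds. Feathers, scales and claws are hard keratinised structures of bird skin, and feathers and scutate scales begin as placodes, which are local thickenings of the epidermis. The claw forms at the tip of the toe, where the epidermis builds a hard sheath over the last bone of the digit. Scutate scales are the large plates of the shank and the upper side of the toes, reticulate scales are low bumps on the underside of the foot, and feathers grow from follicles over most of the body.

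The members were chosen from the measured values themselves. The deposited values were squared to TPM (an abundance per transcript length, relative to the library total) and each library was divided by a scaling factor that centres its median gene. In each bird, a gene's claw score was the log2(TPM + 1) mean of its lowest other appendage minus the claw value. For chicken the higher of the 2 claw libraries was used, and for emu the single claw library. Genes had to reach 5 TPM in all 11 non-claw libraries, which 4842 did, and were ranked by the smaller of their chicken and emu scores. The data pair the gene IDs with no gene names, and 0 of the 8751 IDs matched the reference table. Members are therefore given by ID, no function can be stated for them, and the claw epidermis could not be checked against marker genes.

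The 14 libraries came from chicken (8 libraries) and emu (6 libraries) embryos, and the labels give no strain, sex or genotype. Chicken eggs were kept at 37.8 °C and emu eggs at 35.5 °C. In both birds feather placode tracts were taken at Hamburger and Hamilton stages 33 to 34, claw at stage 36, scutate scale at stage 37 and reticulate scale at stage 39, so appendage and stage cannot be told apart. There were 2 libraries in each chicken group, in emu feather and in emu scutate scale, and 1 each in emu reticulate scale and emu claw. All skin was treated with the protease dispase at 10 mg/mL and 4 °C for 13 h to free the epidermis from the dermis. Nothing in the labels says whether replicates came from separate embryos, so p-values measure the spread between these libraries only. The chicken claw libraries stood apart, with scaling factors of 0.741 and 0.820 against 0.970 to 1.12 in the other 12. Their log2 difference between replicates had an SD of 0.474 over the 4842 genes, while the groups with 2 libraries other than claw had 0.191 to 0.320.

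The median level of the members was close in the 3 claw libraries. The median TPM of the 100 members was 7.68 and 7.69 in the chicken claw libraries and 8.10 in the emu claw library. In the other libraries it was 27.5 to 32.4 in chicken and 26.4 to 31.5 in emu. The median of all 4842 genes, by comparison, was 35.8 to 37.8 in all 14 libraries. These gaps are what the ranking selected, so they describe the members and carry no test. In such bulk samples, fewer cells of a type and less RNA per cell cannot be told apart.

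**Figure D1:**
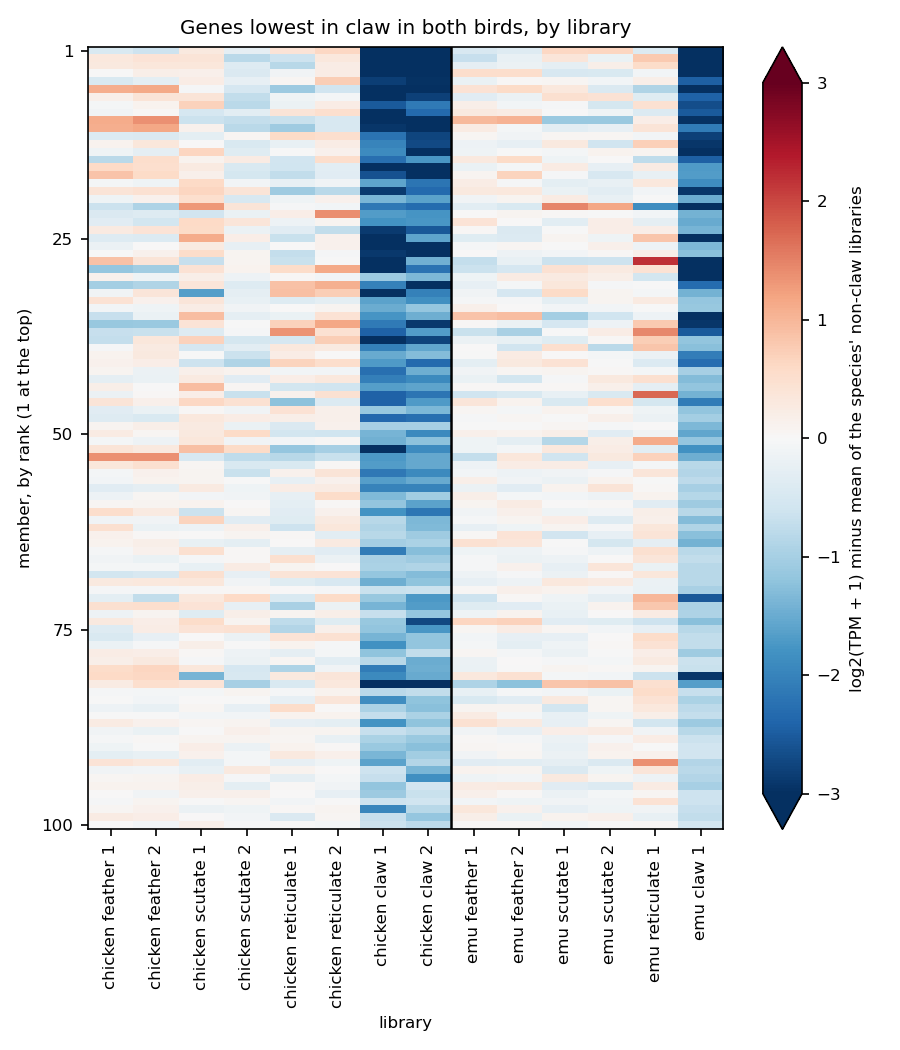
Each row is 1 of the 100 members, from rank 1 at the top to rank 100, and each column is 1 of the 14 libraries; the colour is log2(TPM + 1) minus the mean of the same bird's non-claw libraries. The 2 chicken claw columns and the emu claw column are low throughout, and the deficit tends to shrink from top to bottom, which the ranking fixes.

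The chicken claw score had a median of 1.04 among the members, which is a 2.05-fold deficit on the log2(TPM + 1) scale used for every fold here, and ranged from 0.504 to 5.57. The emu score had a median of 0.980, a 1.97-fold deficit, and ranged from 0.501 to 5.40. The claw was at least 2-fold below the lowest other appendage for 53 members in chicken, 49 in emu and 35 in both, against 2.19%, 2.31% and 0.723% of the 4842 genes. At least a 4-fold deficit in both birds was seen for 8 members and, by the ranking, for no other of the 4842 genes. The smaller score was the chicken one for 48 members and the emu one for 52. Every claw library lay below every other library of its bird for all 100 members in chicken and all 100 in emu, against 22.9% and 26.5% of the 4842 genes. In chicken claw replicate 1, 12 members were under 1 TPM, as were 6 in replicate 2 and 8 in emu claw. Genes under 1 TPM were not counted over the 4842. A limma adjusted p under 0.05 was reached by 98 members for feather above claw in chicken, by 100 for scutate scale and by 99 for reticulate scale, where 20.5%, 20.2% and 20.5% of the 7563 tested genes were called in that direction. The ranking used all of these differences, so nothing is read from the counts.

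The list ends in a dense range of scores. The smaller score was 0.508, 0.504 and 0.501 at ranks 98 to 100 and 0.5003, 0.497 and 0.497 at the next 3 ranks, so the genes just outside differ little from those just inside. In all, 631 of the 4842 genes (13.0%) had a claw score above 0 in both birds. This count moved with the processing. It was 1399 of 4883 with unscaled TPM, and 497 of 4842 when claw was set against the lowest single non-claw library. Of the 1306 genes with a positive score in chicken, 48.3% also had one in emu, against 30.5% of all 4842. Of the 1475 with a positive score in emu, 42.8% also had one in chicken, against 27.0% of all 4842. These overlaps were not tested. Scored in the same way for the other appendages, 340 of 4694 genes (7.24%) were lowest in feather in both birds. For scutate scale this was 29 of 4682 (0.619%), and for reticulate scale 593 of 4669 (12.7%). A deficit of at least 2-fold in both birds was found for 35 genes in claw, 8 in feather, 0 in scutate scale and 0 in reticulate scale. The higher of 2 libraries stood for the scored appendage wherever there were 2. In emu this was a stricter rule for feather and scutate scale than for claw and reticulate scale, which had 1 library each. The counts of the appendages are therefore not on a like footing, and they were not tested.

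**Figure D2:**
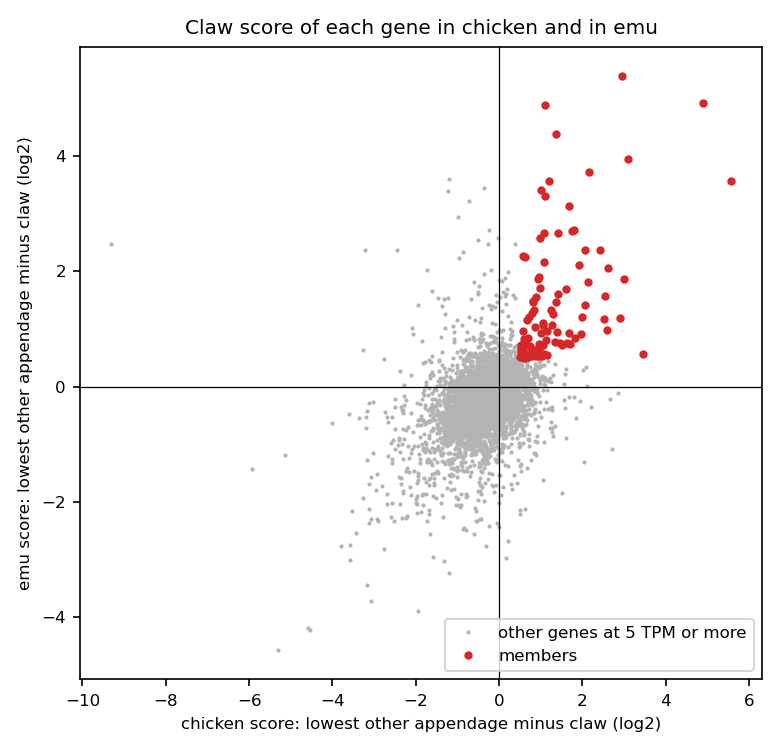
Each point is 1 of the 4842 genes that reached 5 TPM in every non-claw library, with its chicken claw score on the x axis and its emu claw score on the y axis, both as log2 differences (above 0 means lowest in claw). The 100 members fill the corner where both scores are at least 0.501, next to a dense cloud of other genes, and 8 of them reach 2 on both axes.

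The first 2 members by rank had claw levels of 0 to 1.88 TPM. ENSGALG00000010898, at rank 1, had a TPM of 32.1 and 28.2 in chicken feather, 54.5 and 36.7 in scutate scale, 58.7 and 68.6 in reticulate scale. Both chicken claw libraries were near 0, at 0.0451 and 0.038 TPM. In emu it had 28.4 and 30.4 in feather, 62.4 and 62.5 in scutate scale and 29.9 in reticulate scale, and it was listed at 0 in claw. All 3 claw libraries were far below the other 11, which lay between 28.2 and 68.6 TPM. ENSGALG00000013663, at rank 2, was listed at 0 in both chicken claw libraries and had 1.88 TPM in emu claw. Its TPM elsewhere was 30.2 to 72.1 in chicken and 28.2 to 80.2 in emu. The most abundant member, ENSGALG00000009641 at rank 29, was singled out after its values were seen. Its TPM was 1320 and 1432 in chicken feather, 3999 and 3197 in scutate scale, 4369 and 6526 in reticulate scale. Its claw level was 265 and 644 TPM. In emu it was 1490 and 1634 in feather, 3170 and 2794 in scutate scale and 3107 in reticulate scale, and the claw library had 52.0. Feather was the lowest of the other appendages in both birds, and the claw libraries lay below it without overlap, with a claw score of 1.09 in chicken and 4.88 in emu. Chicken feather was also below chicken scutate scale by a log2 difference of -1.38 (SE 0.35, limma adjusted p 0.0409). This call lies near the 0.05 threshold, and its stability under other processing was not followed.

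**Figure D3:**
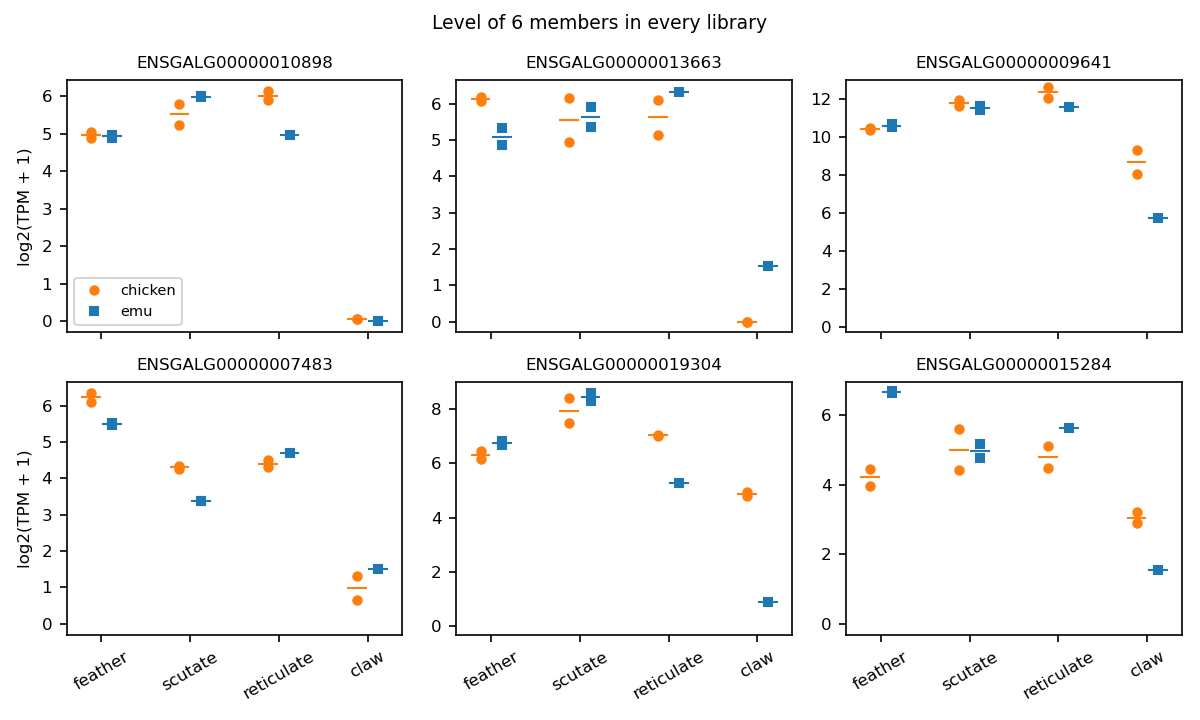
The 6 panels show log2(TPM + 1) of 6 members in each appendage, with a point for each library (chicken as circles, emu as squares) and a short line for the group mean; 2 emu groups have 1 library. In every panel the claw points are the lowest of their bird, while the order of feather, scutate and reticulate scale changes from gene to gene.

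Replicates lay further apart for the members than over the 4842 genes in all 6 groups with 2 libraries. The log2 difference of replicate 1 minus replicate 2 had an SD of 0.806 against 0.474 in chicken claw, 0.509 against 0.320 in chicken scutate scale and 0.412 against 0.286 in chicken reticulate scale. This SD was 0.255 against 0.197 in chicken feather, 0.252 against 0.191 in emu feather and 0.356 against 0.231 in emu scutate scale. In chicken claw 14 members were at least 2-fold apart between replicates, against 3.76% of the 4842. The sets differ in level there, with medians of 7.68 and 7.69 TPM for the members against 37.1 and 35.8 for the 4842. Whether the lower level widens the spread was not tested. The emu claw level lay above both chicken claw libraries for 52 members, below both for 36 and between them for 12. These places were not counted over the 4842 genes, so nothing about the members is read from them. The emu claw library was at least 2-fold above the chicken claw mean for 22 members and at least 2-fold below it for 18, against 14.8% and 12.8% of the 4842 genes. With 1 emu claw library these differences have no replicate check in emu.

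Outside the claw, replicates of each chicken group differed in a common direction for most of the members. Scutate scale replicate 1 was above replicate 2 for 74 of the 100 members, against 43.3% of the 4842 genes, with a median log2 difference of 0.278. Reticulate scale replicate 2 was above replicate 1 for 69 members, against 49.1% of the 4842, with a median log2 difference of replicate 1 minus replicate 2 of -0.146. Both held together for 55 members and for 22.9% of the 4842 genes. Chicken feather replicate 2 was above replicate 1 for 60 members, against 42.7% of the 4842. In emu, feather replicate 1 was the higher for 48 members and scutate scale replicate 1 for 49, against 48.7% and 50.2%. Whether these replicate shifts have a part in the claw deficit was not tested.

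**Figure D4:**
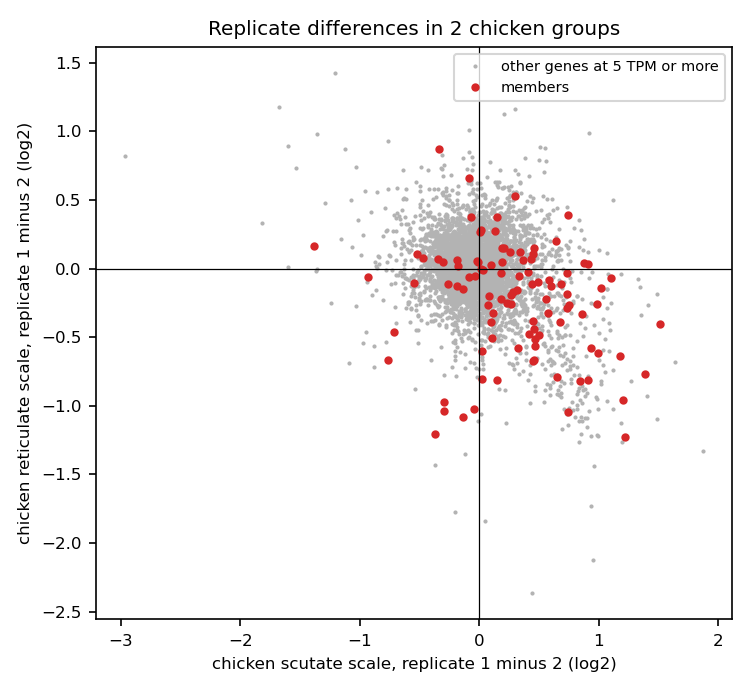
Each point is 1 of the 4842 genes, with the log2 difference of replicate 1 minus replicate 2 in chicken scutate scale on the x axis and in chicken reticulate scale on the y axis. The members crowd into the lower right, where 55 of 100 lie against 22.9% of the 4842 genes.

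The ranking fixed the claw against the rest but not the order of the other appendages, and this order varied over the members. In chicken, the highest of the 3 was feather for 35 members, scutate scale for 31 and reticulate scale for 34, against 39.8%, 25.1% and 35.2% of the 4842 genes. In emu it was feather for 28, scutate scale for 22 and reticulate scale for 50, against 39.5%, 22.3% and 38.1%. The same appendage was highest in both birds for 41 members, against 46.1% of the 4842. The log2 span from the lowest to the highest of the 3 had a median of 0.539 in chicken and 0.548 in emu among the members, against 0.322 and 0.357. The span stayed under 2-fold in both birds for 65 members, against 87.9% of the 4842 genes. These spans were not tested, and the emu reticulate scale level rests on 1 library.

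Among the other appendages of chicken, with the claw libraries in the fit, limma called shares of members near those of the 4842 genes. With the claw libraries left out, the share was above that of the 4842 between scutate and reticulate scale (17 members against 10.9%). It was not above it between feather and scutate scale (14 against 14.4%) or feather and reticulate scale (33 against 36.6%). Between feather and scutate scale 9 members were called, against 10.0% of the 7563 tested genes and 7.39% of the 4842. Of these 4 were higher and 5 lower in feather (6.04% and 3.99% of the tested genes). Unscaled TPM gave 5 higher and 4 lower, while over the 7563 tested genes 501 of 743 calls were higher. The direction turned with the scutate scale library kept, with most calls higher without replicate 1 and most lower without replicate 2. Over the 7563 most calls were higher in feather in both of these fits. They leave 1 scutate scale library, so their counts are not given. Without either chicken feather library the count fell for the members and over the 7563 alike, with 1 feather library left. It was 14 without the claw libraries, where the 4842 gave 14.4%. ENSGALG00000002993 had 35.2 and 35.3 TPM in feather against 9.12 and 7.30 in scutate scale, without overlap. This was a log2 difference of 1.98 (SE 0.36, limma adjusted p 0.00903). The adjusted p ran from 0.00831 to 0.0665 over the alternatives, and the call was lost without feather replicate 1, without feather replicate 2 or without scutate scale replicate 2.

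Between chicken feather, the same 2 libraries, and reticulate scale 24 members were called, against 26.6% of all tested genes and 25.7% of the 4842. Of these 12 were higher and 12 lower in feather (14.3% and 12.4% of the tested genes). Unscaled TPM gave 17 higher and 11 lower, while over the 7563 tested genes 1398 of 2142 calls were higher. Without the claw libraries 33 were called, against 36.6% of the 4842. The count fell without either feather library or either reticulate scale library, for the members and over the 7563 tested genes alike. Those fits leave 1 library in a group, so their counts are not given. ENSGALG00000002993 was again the member most above in feather, by 2.11 log2 units (SE 0.36, limma adjusted p 0.00321), with 6.90 and 7.88 TPM in reticulate scale. ENSGALG00000020969 was the member most below, by a log2 difference of -2.06 (SE 0.28, limma adjusted p 0.00113). It had 11.9 and 12.1 TPM in feather against 45.0 and 63.0 in reticulate scale, and its call held under all 14 alternatives.

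Between chicken scutate and reticulate scale 6 members were called, against 6.85% of all tested genes and 4.77% of the 4842. Of these 4 were higher and 2 lower in scutate scale (2.83% and 4.02% of the tested genes). Quantile normalization gave 6 higher and 1 lower, while over the 7563 tested genes 270 of 562 calls were higher. The count was 17 without the claw libraries (10.9% of the 4842). It fell without scutate scale replicate 1 or either reticulate scale library, as it did over the 7563. Such fits leave 1 library in a group, so their counts are not given. A limma fit of these 4 libraries alone called 0 members, with 19 at an unadjusted p under 0.05. Over the 7563 tested genes that fit also called 0, with 1421 at an unadjusted p under 0.05. ENSGALG00000000894 had 275 and 220 TPM in scutate scale against 65.3 and 72.8 in reticulate scale, a log2 difference of 1.82 (SE 0.39, limma adjusted p 0.0249). Its limma adjusted p was 0.000203 without the claw libraries and 0.0835, no longer a call, in the fit of these 4 libraries alone. Leaving out any 1 of the 4 libraries also ended the call. ENSGALG00000010738 had 8.44 and 6.87 TPM in scutate scale against 22.1 and 20.2 in reticulate scale, a log2 difference of -1.36 (SE 0.26, limma adjusted p 0.0159). Its limma adjusted p was 0.00601 without the claw libraries. The call ended under quantile normalization (0.0588), in the fit of these groups alone (0.0968) and without any 1 of the 4 libraries. For both genes the 2 groups did not overlap.

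In emu, feather and scutate scale differed for 5 members, against 4.71% of all tested genes and 3.16% of the 4842. Of these 2 were higher and 3 lower in feather (2.21% and 2.50% of the tested genes). Leaving out any 1 of these emu libraries lowered the count, for the members and over the 7563 tested genes alike. Those fits leave 1 library in a group, so their counts are not given. Without the claw libraries 12 members were called, against 6.67% of the 4842. ENSGALG00000015284 had 98.5 and 102 TPM in emu feather against 26.0 and 35.0 in scutate scale, a log2 difference of 1.70 (SE 0.37, limma adjusted p 0.0339, at most 0.194 over the alternatives). ENSGALG00000015622 had 11.2 and 8.88 TPM in emu feather against 40.1 and 41.6 in scutate scale, a log2 difference of -1.93 (SE 0.41, limma adjusted p 0.0285, at most 0.197). Neither pair of groups overlapped, and for both genes leaving out any of the 4 libraries ended the call. ENSGALG00000007483 and ENSGALG00000019304 were called in both birds, each in the same direction in both. The share of genes called in both birds was 1.23% of the 7563 and 0.950% of the 4842.

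ENSGALG00000007483, at rank 10, was higher in feather. Its TPM was 67.6 and 81.2 in chicken feather against 19.3 and 18.2 in scutate scale, 18.8 and 21.7 in reticulate scale and 0.584 and 1.46 in claw. In emu it was 42.9 and 45.3 in feather, 9.39 and 9.29 in scutate scale and 24.9 in reticulate scale, and the claw library had 1.85. Feather stood above every other library in each bird. The feather minus scutate scale log2 difference was 1.93 in chicken (SE 0.20, limma adjusted p 0.000746) and 2.13 in emu (SE 0.20, limma adjusted p 0.000845), and both calls held under all 14 alternatives.

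ENSGALG00000019304, at rank 21, was lower in feather than in scutate scale. Its TPM was 85.8 and 70.3 in chicken feather, 333 and 177 in scutate scale, 130 and 127 in reticulate scale and 29.7 and 26.3 in claw. In emu it was 112.5 and 102 in feather, 384 and 313 in scutate scale and 37.8 in reticulate scale, and the claw library had 0.870. Scutate scale was the highest appendage in both birds, and the reticulate scale level lay above feather in chicken but below it in emu. The log2 difference was -1.63 in chicken (SE 0.25, limma adjusted p 0.00423) and -1.69 in emu (SE 0.25, limma adjusted p 0.00715). The chicken call was lost in the fit of only the groups compared (adjusted p 0.0900), and the emu call without emu feather replicate 2 or scutate scale replicate 1 (0.0662 at most).

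**Figure D5:**
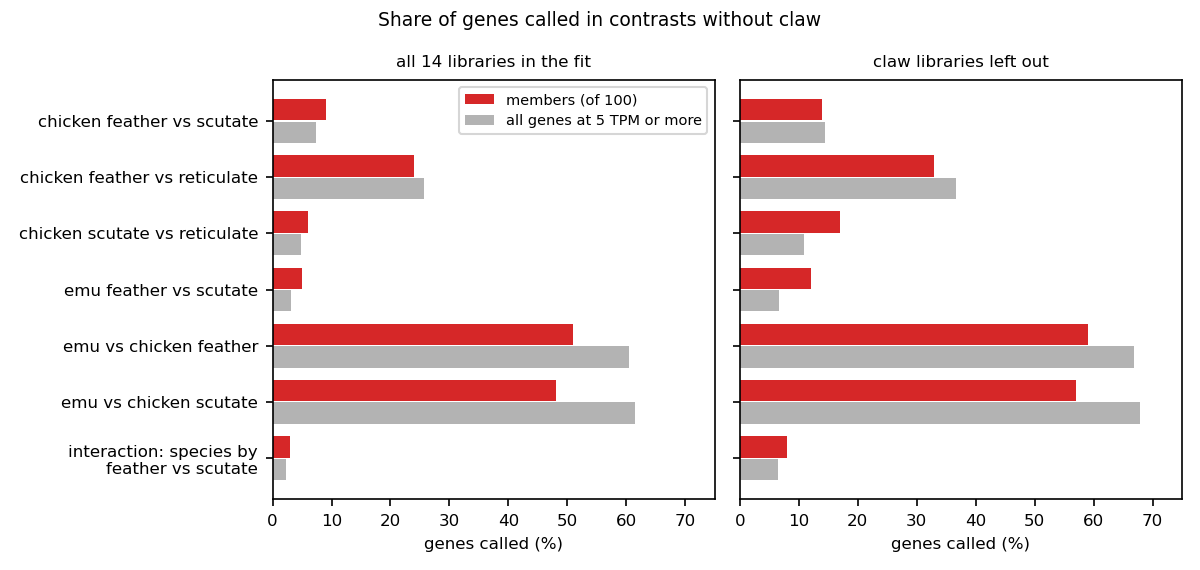
Bars give the percentage of genes called at a limma adjusted p under 0.05 in 7 contrasts that involve no claw group, for the 100 members and for the 4842 genes, with the claw libraries in the fit on the left and left out on the right. In the left panel the member shares lie near those of the 4842 genes for the appendage contrasts and below them in both species contrasts (51 against 60.5% in feather and 48 against 61.5% in scutate scale). In the right panel they lie above for chicken scutate against reticulate scale (17 against 10.9%) and emu feather against scutate scale (12 against 6.67%). They do not for chicken feather against scutate scale (14 against 14.4%) or reticulate scale (33 against 36.6%).

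Over the 4 appendage contrasts together, 31 members were called at least once, against 32.2% of the 7563 tested genes and 29.1% of the 4842. Without the claw libraries 46 members were called at least once, against 43.2% of the 4842. The single emu reticulate scale library could only be described. Emu feather was at least 2-fold above it for 6 members and at least 2-fold below it for 11, against 1.73% and 4.28% of the 4842 genes. Emu scutate scale was at least 2-fold above it for 2 members and below it for 8, against 1.01% and 2.17%.

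The level of many members differed between the birds. The ranking did not use this difference, but its 5 TPM minimum in both birds leaves out genes nearly absent in either. In feather 51 members were called, against 62.8% of all tested genes and 60.5% of the 4842. Of these 21 were higher and 30 lower in emu (30.9% and 31.9% of the tested genes). In scutate scale 48 were called, against 64.1% and 61.5%. Of these 20 were higher and 28 lower in emu (32.5% and 31.6% of the tested genes). This balance depended on the chicken scutate scale library kept, with more members higher in emu without replicate 1 and more lower without replicate 2. Over the 7563 tested genes the balance stayed near even in both fits. They leave 1 chicken scutate scale library, so their counts are not given. Without the claw libraries 59 members were called in feather and 57 in scutate scale, against 66.9% and 67.8% of the 4842. Whether these shares differ from the background was not tested. In both appendages 37 members were called, against 52.2% of the 7563 and 50.0% of the 4842. The direction was the same for 36 of the 37, with 16 higher and 20 lower in emu. These directions were not counted over the 4842 genes, so nothing about the members is read from them. Incubation temperature and the authors' scaling of the columns differed along with species and cannot be told apart from it.

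ENSGALG00000000681 had the largest deficit in emu among the called members. Its TPM was 117 and 103.02 in chicken feather and 121 and 149 in chicken scutate scale, against 12.0 and 11.6 in emu feather and 12.2 and 8.16 in emu scutate scale. The log2 difference was -3.11 in feather (SE 0.21, limma adjusted p 2.24e-06) and -3.62 in scutate scale (SE 0.21, limma adjusted p 7.5e-07). In claw the same order held, with 37.1 and 25.5 TPM in chicken and 2.93 in emu. ENSGALG00000015284 was the member furthest above in emu feather, with 98.5 and 102 TPM against 14.8 and 21.1 in chicken, a log2 difference of 2.44 (SE 0.37, limma adjusted p 0.000359). ENSGALG00000010738 was furthest above in emu scutate scale, with 50.5 and 36.6 TPM against 8.44 and 6.87 in chicken, a log2 difference of 2.35 (SE 0.26, limma adjusted p 4.87e-05). These calls held under all 14 alternatives.

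The feather minus scutate scale difference was itself unequal in the birds for 3 members, by the interaction term in limma, against 4.47% of the 7563 tested genes and 2.29% of the 4842. In 2 of them it was higher in emu and in 1 lower (1.49% and 2.98% of the tested genes). Quantile normalization gave 1 and 1, while over the 7563 tested genes 150 of 353 calls were higher. For all 3 the fitted difference had opposite signs in the birds, but each was called in 1 bird only. Over all members, the sign was the same in both birds for 55, against 58.2% of the 4842. Without the claw libraries 8 members were called, against 6.53% of the 4842. The count of 3 fell without either chicken feather library or any 1 of the emu feather and scutate scale libraries. Over the 7563 tested genes the count fell in the same fits. Without 1 chicken scutate scale library it fell over the 7563 but not for the members. All these fits leave 1 library in a group, so their counts are not given.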

How the data were processed

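Polyadenylated RNA from the epidermis was sequenced as strand-specific libraries, per the labels' protocols. The submitters' processing notes name CASAVA, TopHat2 2.0.6 and HTSeq 0.5.3p9. The genome build, the annotation and the way emu reads were given chicken gene IDs are not given in the sources used here. The authors deposited 1 table, read here as a score equal to the square root of TPM, since the squares of each emu column sum to 550000; no header states the transform, and the planned tests assumed TPM. For chicken these sums run from 500783 to 575133, and only the emu columns are named as scaled, per the file headers, so the birds' values were scaled differently before deposit, which bears on every comparison of emu with chicken. TPM keeps no depth, so the depth and its precision are unknown.

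Values were squared and divided by median-ratio factors over the 6797 genes above 0 in every library, because the ranking uses that scaling. Genes of at least 1 TPM in at least 2 libraries (7563, before scaling) were tested with limma 3.58.1 in R 4.3.3 on log2(TPM + 1), which understates changes of low genes. A single model held 8 group means, with eBayes and a trend, two-sided, Benjamini-Hochberg over all tested genes, and a call at an adjusted p under 0.05. All 100 members were tested. The code was tested on simulated data. Other steps ran in Python 3.11.15 (numpy 2.4.6, pandas 2.3.3) with plots from matplotlib 3.10.9.

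The members and lists were chosen with earlier results of these data known. The lists go by symbol and could not be applied, and the planned rule for naming members needs a symbol and named 0. The text instead gives, per contrast, called members with the largest difference in a direction, members called in both birds and 3 chosen for rank or level, a choice made after the data were seen. Alternatives were other scalings, a pseudocount of 0.1, other filters, no trend, fewer libraries, a fold minimum and the replicate number as a block.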

Additional observations from a re-analysis of the deposited data

Results flagged for a closer look

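For 3 members the feather minus scutate scale difference was itself unequal in chicken and emu, by the interaction term in limma, against 4.47% of the 7563 tested genes and 2.29% of the 4842 genes at 5 TPM or more. For all 3 the fitted difference had opposite signs in the birds, but each was called in 1 bird only, so the sign in the other is not established. ENSGALG00000015284 had a log2 interaction (emu minus chicken) of 2.48 (SE 0.52, limma adjusted p 0.0320). Its TPM was 14.8 and 21.1 in chicken feather against 47.3 and 20.3 in chicken scutate scale, and 98.5 and 102 in emu feather against 26.0 and 35.0 in emu scutate scale. The chicken groups overlap, and the chicken difference of -0.78 had a limma adjusted p of 0.242. ENSGALG00000013406 had an interaction of 1.18 (SE 0.28, limma adjusted p 0.0497). Its TPM was 33.0 and 28.5 in chicken feather against 63.4 and 53.8 in scutate scale, and 79.9 and 60.7 in emu feather against 47.9 and 69.0 in scutate scale, where the emu groups overlap and the emu difference of 0.27 had a limma adjusted p of 0.559. Its interaction call was kept under 4 of 18 alternatives. ENSGALG00000015622 had an interaction of -2.60 (SE 0.57, limma adjusted p 0.0374). Its TPM was 23.8 and 28.8 in chicken feather against 26.7 and 9.58 in scutate scale, and 11.2 and 8.88 in emu feather against 40.1 and 41.6 in scutate scale. The chicken groups overlap here too, and the chicken difference of 0.67 had a limma adjusted p of 0.367. The interaction call of ENSGALG00000015622 was kept under 8 of 18 alternatives and that of ENSGALG00000015284 under 12 of 18. Over the alternatives the adjusted p ran from 0.0105 to 0.123 for ENSGALG00000015284, from 0.0371 to 0.183 for ENSGALG00000013406 and from 0.00732 to 0.149 for ENSGALG00000015622. The count of 3 fell without either chicken feather library or any 1 of the emu feather and scutate scale libraries. Over the 7563 tested genes the count fell in the same fits, which leave 1 library in a group.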

How the results depend on the processing

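Among the 100 members, 71 to 100 were chosen again under the planned changes of scaling, pseudocount, filter or scoring, and 79 to 98 when 1 library was left out, with the lowest counts without chicken claw replicate 1 (79) and replicate 2 (80). The emu claw library has no replicate, so it could not be left out. Leaving out the claw libraries raised the members called from 9 to 14 for chicken feather against scutate scale and from 6 to 17 for scutate against reticulate scale. It raised them from 5 to 12 for emu feather against scutate scale and from 3 to 8 for the interaction. Over the 7563 tested genes the calls rose too, in the same order from 759 to 1311, 518 to 1017, 356 to 683 and 338 to 758. A minimum log2 difference of 1 gave 15 members for chicken feather against reticulate scale, against 828 of the 7563 tested genes. It gave 28 for emu against chicken feather and 24 for emu against chicken scutate scale, against 2636 and 2733 of the 7563. A fit of only the groups compared gave 0 for chicken scutate against reticulate scale in limma (19 at an unadjusted p under 0.05) and 6 for the interaction. Over the 7563 tested genes these fits called 0 and 787, with 1421 at an unadjusted p under 0.05 in the first. The interaction count was 1 with a pseudocount of 0.1 and 1 with all genes above 0 in any library. These fits called 274 of 7563 and 361 of 8628 tested genes. Fits without 1 replicate leave 1 library in a group. Over the 7563 tested genes each of them called fewer than the fit of all libraries, in every contrast. Their member counts are therefore given as ranges only, and nothing about the members is read from them. Without 1 replicate, the counts ranged from 2 to 10 for chicken feather against scutate scale, 10 to 20 for feather against reticulate scale, 2 to 6 for scutate against reticulate scale, 1 to 2 for emu feather against scutate scale, 39 to 42 for emu against chicken feather, 36 to 47 for emu against chicken scutate scale, and 0 to 4 for the interaction; the cause was not tested.

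The labels do not say that a replicate number pairs samples, and same-numbered deviations correlated at -0.224 to 0.185 over the pairs of groups. With the number as a replicate block the members called were 9, 24 and 7 in the chicken contrasts, 4 in emu, 53 and 48 between species, and 1 for the interaction. Over the 7563 tested genes the counts in the same order were 652, 1844 and 443, 298, 4656 and 4783, and 277. Among the single genes named, the block ended calls of ENSGALG00000015284 for emu feather against scutate scale and of ENSGALG00000013406 and ENSGALG00000015622 for the interaction.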
